A study of Tuber borchii with 4 samples.

Results

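Of the 12346 gene models of *Tuber borchii* counted in 4 libraries, 2 are described here: the alternative oxidase gene (protein ID 1101071) and the gene for the alpha subunit of NAD-dependent isocitrate dehydrogenase (protein ID 1125653). Both were found in the count files by their protein IDs, and their names come from the annotation of the study. All libraries came from mycelium of *T. borchii* SP1, a strain isolated for the study, grown at 22 °C in the dark in static liquid culture. WPG was woody plant medium with 20 g/L glucose, and WPGY was the same medium with 5 g/L yeast extract added. PDB was potato dextrose broth at 20 g/L, and MPY combined maltose at 35 g/L with peptone and yeast extract at 5 g/L each. The woody-plant-based cultures were harvested on day 65 and the PDB and MPY cultures on day 85 by the sample labels, while the headers of the count columns carry day 64 for the former, day 85 for PDB and day 83 for MPY. The woody-plant-based media were harvested earlier than the complex media, so the medium and the age of the culture cannot be told apart. Since each medium was represented by 1 library, differences between media could not be set against a spread between replicates, and p-values are not given.

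The mitochondrial respiratory chain of fungi has a branch point at ubiquinone, the lipid-soluble carrier that collects electrons from several dehydrogenases. From ubiquinol the electrons can pass through the cytochrome pathway, which pumps protons for ATP synthesis, or directly to oxygen through alternative oxidase, a single enzyme of the inner membrane that pumps none. Alternative oxidase is known in plants and many fungi as a route that keeps NADH and ubiquinol oxidised when the cytochrome pathway is slow or blocked. NAD-dependent isocitrate dehydrogenase works upstream in the mitochondrial matrix, where it oxidises isocitrate to 2-oxoglutarate in the citrate cycle and delivers NADH to the chain. In *Saccharomyces cerevisiae* this enzyme is built from 2 kinds of subunit, and the annotation gives the *T. borchii* gene the name IDH2, one of those subunits in yeast.

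The counts summed to between 47969567 in MPY and 157335190 in PDB, so that 1 count was worth from 0.00636 to 0.0208 counts per 1000000 counts (CPM). The lowest count of either gene was 8820. Counting error alone was between 0.284% and 0.708% of the value for alternative oxidase and between 0.487% and 1.06% for isocitrate dehydrogenase. Intervals are at 95% and cover counting error only. Reads from PCR are not independent molecules, and the spread between cultures of 1 medium is unknown. These are bulk libraries on a relative scale, so fewer transcribing hyphae and less RNA per hypha cannot be told apart.

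The alternative oxidase gene lies on sequence 102 of the Tubbor1 assembly from 68025 to 69315, a span of 1291 bp that includes any introns. It had 19975 counts in MPY and 112682 in PDB, against 115057 in WPG and 123620 with yeast extract (WPGY). Scaled to the library total this was 416 CPM in MPY (interval 411 to 422) and 716 CPM in PDB (712 to 720.4), against 989 CPM in WPG (983 to 994) and 985 CPM in WPGY (979.9 to 991). The gene was therefore highest in the woody-plant-based media, lower in PDB and lowest in MPY. Alternative oxidase belonged to the top 1% of the detected gene models in the woody-plant-based media, at ranks 93 and 95, and stood at rank 165 in PDB and 417 in MPY. Its transcription effort, taken here as the share of all raw counts, went from 0.0989% in WPG to 0.0716% in PDB and 0.0416% in MPY. The paper defines the term on normalized reads.

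The gene for the isocitrate dehydrogenase alpha subunit lies on sequence 100 from 12771 to 14434, a span of 1664 bp. It had 8820 counts in MPY and 42193 in PDB, against 33213 in WPG and 36336 with yeast extract (WPGY). In CPM this was 184 in MPY (interval 180.1 to 188) and 268 in PDB (266 to 271), against 285 in WPG (282 to 288) and 289.6 in WPGY (287 to 293). The last 3 media lay close together, and MPY stood below them. The ranks of the gene ran from 616 in WPGY to 1332 in MPY, which placed it in the top 5.73% of detected gene models in WPG and in the top 12.9% in MPY.

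**Figure D1:**
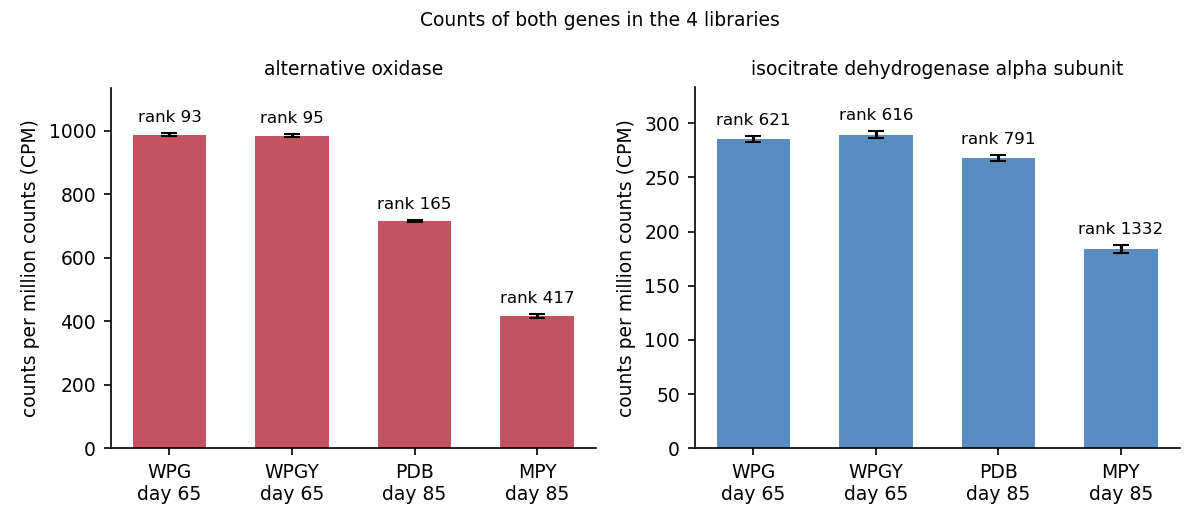
Bars give the CPM of the alternative oxidase gene (left) and the isocitrate dehydrogenase alpha subunit gene (right) in the single library of each medium, with 95% counting intervals and the rank among 12346 gene models. Alternative oxidase goes from 989 CPM in WPG to 416 CPM in MPY, and isocitrate dehydrogenase from 285 CPM to 184 CPM.

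Adding yeast extract to the woody-plant-based medium went with almost no difference in either gene. Alternative oxidase was 0.997 times as high in WPGY as in WPG (interval 0.989 to 1.005), and isocitrate dehydrogenase was 1.01 times as high (interval 1.000 to 1.03). Both intervals hold 1 or end at it, so a difference was not detectable for either gene at this depth. The share of gene models beyond 2-fold in this pair was 0% in either direction, among 8641 models with at least 1 CPM in 1 of the libraries. MPY contained the same amount of yeast extract as WPGY, and set against WPGY it gave folds of 0.423 for alternative oxidase, past the 2-fold limit, and 0.635 for isocitrate dehydrogenase, where 13.8% of the models passed the limit downwards and 9.6% upwards. Set against WPGY, PDB gave 0.727 and 0.926, with neither gene past the limit and 10.9% of the models past it downwards and 7.6% upwards. For isocitrate dehydrogenase the sign of this PDB difference depended on the scaling, with log2 values from -0.19 to 0.0024. The comparisons against WPGY share the PDB and MPY libraries with the comparisons against WPG.

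In PDB the genes parted. Alternative oxidase was 0.724 times as high in PDB as in WPG (interval 0.718 to 0.730), a difference of -0.46 in log2(CPM + 1). Isocitrate dehydrogenase was 0.940 times as high (interval 0.926 to 0.953), a difference of -0.089, close to the median of -0.055 over the 8701 models tested. Neither gene passed the 2-fold limit, which 11.4% of the models passed downwards and 7.65% upwards. Of all models tested, 27.1% had a more negative difference than alternative oxidase and 47.8% a more negative one than isocitrate dehydrogenase. The sign of the isocitrate dehydrogenase difference depended on the scaling. It was 0.023 under median-of-ratios scaling, where the median of all models was 0.054, and -0.17 when the 10 highest models of each library were left out of the totals, so no direction is given for this gene in PDB.

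In MPY both genes were lower than in WPG, and 1 of the 2 passed the 2-fold limit. Alternative oxidase had 0.421 times the CPM of WPG (interval 0.415 to 0.428) and a log2 difference of -1.25. Isocitrate dehydrogenase had 0.644 times the CPM (interval 0.629 to 0.660) and a log2 difference of -0.63. The limit was passed downwards by 14.4% and upwards by 9.6% of 8742 models, so a difference of the size of that of alternative oxidase was not rare between these libraries. More negative values were found for 9.62% of the models in the case of alternative oxidase and for 25.3% in the case of isocitrate dehydrogenase. The median model was at -0.10. Under median-of-ratios and TMM scaling, counts per kb of span and totals without the highest models, alternative oxidase stayed beyond 2-fold, from -1.30 to -1.10, and isocitrate dehydrogenase stayed within it, from -0.69 to -0.49.

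The complex media shared the harvest day of the labels, and here too both genes were lower in MPY. Against PDB, alternative oxidase in MPY was 0.581 times as high (interval 0.573 to 0.590) and isocitrate dehydrogenase 0.686 times as high (interval 0.670 to 0.702). Neither passed the 2-fold limit, which 8.93% of 8430 models passed downwards and 8.37% upwards. The log2 differences were -0.78 and -0.54, against a median of -0.073. On the CPM scale both genes followed one order, with WPG and WPGY above PDB and PDB above MPY. Among the 6365 models with at least 10 CPM in every library 20.7% had this order, which isocitrate dehydrogenase lost under median-of-ratios scaling.

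**Figure D2:**
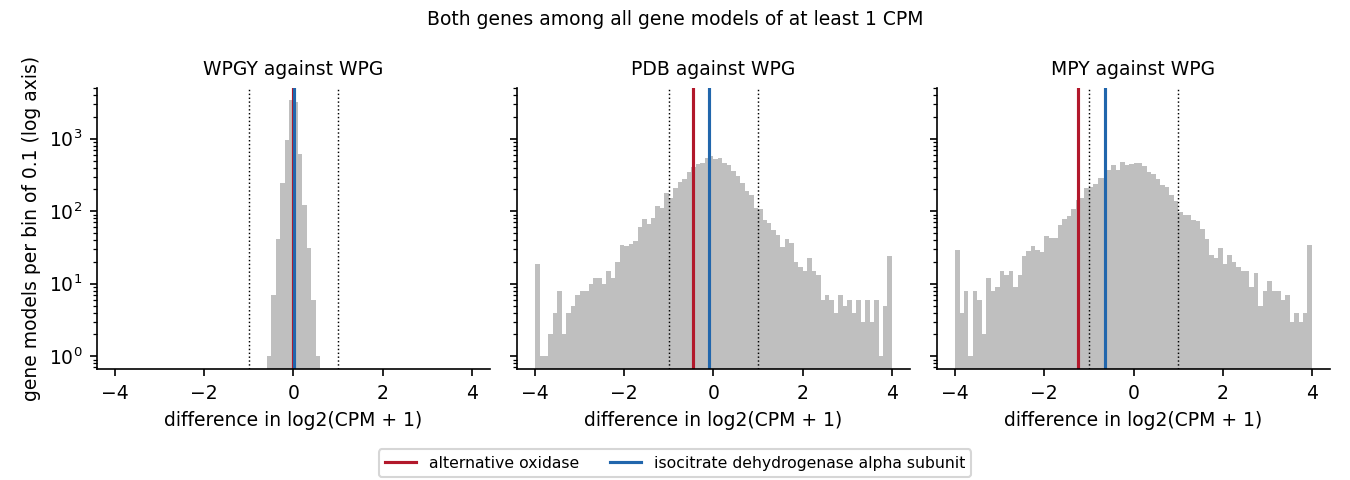
Grey bars count gene models (log axis) by their difference in log2(CPM + 1) for WPGY, PDB and MPY against WPG, with values beyond 4 in either direction placed in the outermost bars; vertical lines mark alternative oxidase (red) and isocitrate dehydrogenase (blue), and dotted lines the 2-fold limit. Both genes sit at the centre for WPGY, and in MPY alternative oxidase lies at -1.25, past the limit, and isocitrate dehydrogenase at -0.63.

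The number of alternative oxidase counts for each isocitrate dehydrogenase count is a ratio within 1 library, which no scaling between libraries can alter. It was 2.26 in MPY (interval 2.21 to 2.32) and 2.67 in PDB (2.64 to 2.701), against 3.46 in WPG (3.42 to 3.51) and 3.40 in WPGY (3.36 to 3.44). The ratio was lower in both complex media than in the woody-plant-based media, and in MPY it was 0.654 times that in WPG. The counting intervals of WPG and WPGY overlapped, and those of PDB and MPY overlapped with no other, but all leave out the spread between cultures. How often other pairs of gene models differ as much between these libraries was not tested. To compare the levels of the genes, the counts were divided by the span of each gene model, since a longer model collects more reads. The span includes any introns, and coding lengths were not at hand, so ratios per kb between genes depend on the intron content of each. Per kb of span the level of alternative oxidase was 2.92 times that of isocitrate dehydrogenase in MPY and 3.44 times in PDB, against 4.47 times in WPG and 4.39 times in WPGY.

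Alternative oxidase was then set beside the annotated genes of routes that bring electrons to ubiquinone, directly or through another carrier. The list holds 4 such genes from the 827 rows of the annotation that were at hand, so it is not the whole pathway. The NADH dehydrogenase of the ubiquinone type (963532) belongs to the family of single-protein enzymes that oxidise NADH without pumping protons. It had 125 CPM in MPY and 70.1 in PDB, against 25.9 in WPG and 25.4 in WPGY, the reverse of the order of alternative oxidase. The difference between MPY and WPG was 2.23 in log2(CPM + 1). Per kb of span, alternative oxidase exceeded this NADH dehydrogenase 4.70 times in MPY (interval 4.56 to 4.84) and 14.4 times in PDB, against 53.9 times in WPG (interval 52.0 to 55.9) and 54.9 times in WPGY.

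The FAD-dependent glycerol-3-phosphate dehydrogenase (1064681, GUT2), which passes electrons from cytosolic glycerol 3-phosphate to ubiquinone, had 63.3 CPM in MPY and 139 in PDB, against 209 in WPG and 212 in WPGY. It had the same order of media as alternative oxidase and a larger difference in MPY, -1.71 in log2(CPM + 1). The ubiquinone oxidoreductase of the electron transfer flavoprotein (1047929), an entry point for electrons from fatty acid and amino acid oxidation, had a difference of -0.43, and the beta subunit of the flavoprotein itself (1083211) one of 0.11. Of these 4 genes, 1 was beyond 2-fold above WPG in MPY and 1 beyond 2-fold below, limits that 9.6% and 14.4% of all models passed. With 4 genes these counts are a description of the genes named and of no more.

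On the cytochrome side and in ATP synthesis 3 genes were at hand, and none passed the 2-fold limit against WPG in MPY or PDB. Most models did not pass it either, since 14.4% passed downwards and 9.6% upwards in MPY, and 11.4% and 7.65% in PDB. The copper chaperone COX17 (1117909), needed to build cytochrome c oxidase, had 16.2 CPM in WPG and 21.9 in MPY. The gene annotated as an inner membrane translocase for respiratory chain proteins (1082976) had 34.4 CPM in WPG and 59.4 in MPY, and ATP14 (1083511), a subunit of ATP synthase, had 123 and 99.0 CPM. The subunits of the cytochrome complexes themselves were not analysed here.

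For isocitrate dehydrogenase the nearest step of the citrate cycle at hand was aconitase (1070263), which makes isocitrate from citrate. The annotation does not separate it from homoaconitase of lysine synthesis. It had 75.9 CPM in MPY and 100.1 in PDB, against 118 in WPG and 121 in WPGY, with a log2 difference of -0.64 between MPY and WPG against -0.63 for isocitrate dehydrogenase. The ratio of isocitrate dehydrogenase to aconitase per kb of span was 4.77 in MPY (interval 4.59 to 4.96) and 5.28 in PDB (5.18 to 5.38), against 4.74 in WPG (4.65 to 4.84) and 4.72 in WPGY (4.63 to 4.81). The intervals of WPG, WPGY and MPY overlap, and that of PDB lies above them.

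The flavoprotein fumarate reductase gene (1101272, OSM2), whose relatives in *S. cerevisiae* reduce fumarate to succinate, went the other way. It had 997 CPM in MPY and 593 in PDB, against 406 in WPG and 415 in WPGY, a log2 difference of 1.29 between MPY and WPG. The level of alternative oxidase per kb of span was 4.13 times that of fumarate reductase in WPG, 2.05 times in PDB and 0.708 times in MPY (interval 0.697 to 0.720). Isocitrate dehydrogenase went from 0.925 times the level of this gene in WPG to 0.243 times in MPY.

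Of the 3 mitochondrial carriers, 2 were lower in MPY than in WPG by over 2-fold and none was higher, against 14.4% and 9.6% of all models. The oxaloacetate carrier (980932) had 27.0 CPM in MPY and 52.3 in PDB, against 72.6 in WPG and 73.4 in WPGY. The carrier annotated as TPC1 (1060204), a thiamine pyrophosphate carrier in *S. cerevisiae*, had 28.4, 50.9, 98.1 and 96.6 CPM in the same order of libraries. The carrier for oxoglutarate and malate (1098612) handles the product of isocitrate dehydrogenase. It had 204 CPM in MPY and 273 in PDB, against 214 in WPG and 225 in WPGY. The sign of the difference between MPY and WPG depended on the scaling. In PDB this carrier lay above WPG under each scaling, by 0.27 to 0.48 in log2, unlike the other carriers.

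Among the 7 mitochondrial ribosomal protein genes, 1 was lower than in WPG by over 2-fold in MPY and none was higher, against 14.4% lower and 9.6% higher among all models. Their median log2 difference was -0.14, and 1 of 7 lies near the share of all models. Model 1070200 of this group, at 0.88, reached 1.02 under another scaling, past the limit. Of the 3 oxidant defence genes, cytochrome c peroxidase (64849), which reduces hydrogen peroxide in the mitochondrion, had 753 CPM in WPG, 592 in PDB and 611 in MPY. The 2 superoxide dismutase models were low, between 0.248 and 5.50 CPM, and model 1083220 was the third gene beyond 2-fold above WPG in MPY, at 1.29. With a pseudocount of 5, which damps genes this low, the number of listed genes past the limit upwards was 2 instead of 3. Over all 23 genes set beside the pair, 3 were higher and 4 lower in MPY than in WPG by over 2-fold, where 9.6% and 14.4% of all models were, so the counts of the list lay near those of all models. The median was -0.14 against -0.10 for all models. A more negative difference than that of alternative oxidase was found for 3 of the 23, and than that of isocitrate dehydrogenase for 6. In PDB 1 of the 23 was higher than in WPG by over 2-fold, the NADH dehydrogenase, and 2 were lower, shares that do not exceed the 7.65% and 11.4% of all models. The count of 2 was 1 under median-of-ratios and TMM scaling and per kb of span, and 0 with a pseudocount of 5. It was 3 when the 10 highest models of each library were left out of the totals. The median in PDB was -0.24 against -0.055 for all models, and WPGY had none past the limit.

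**Figure D3:**
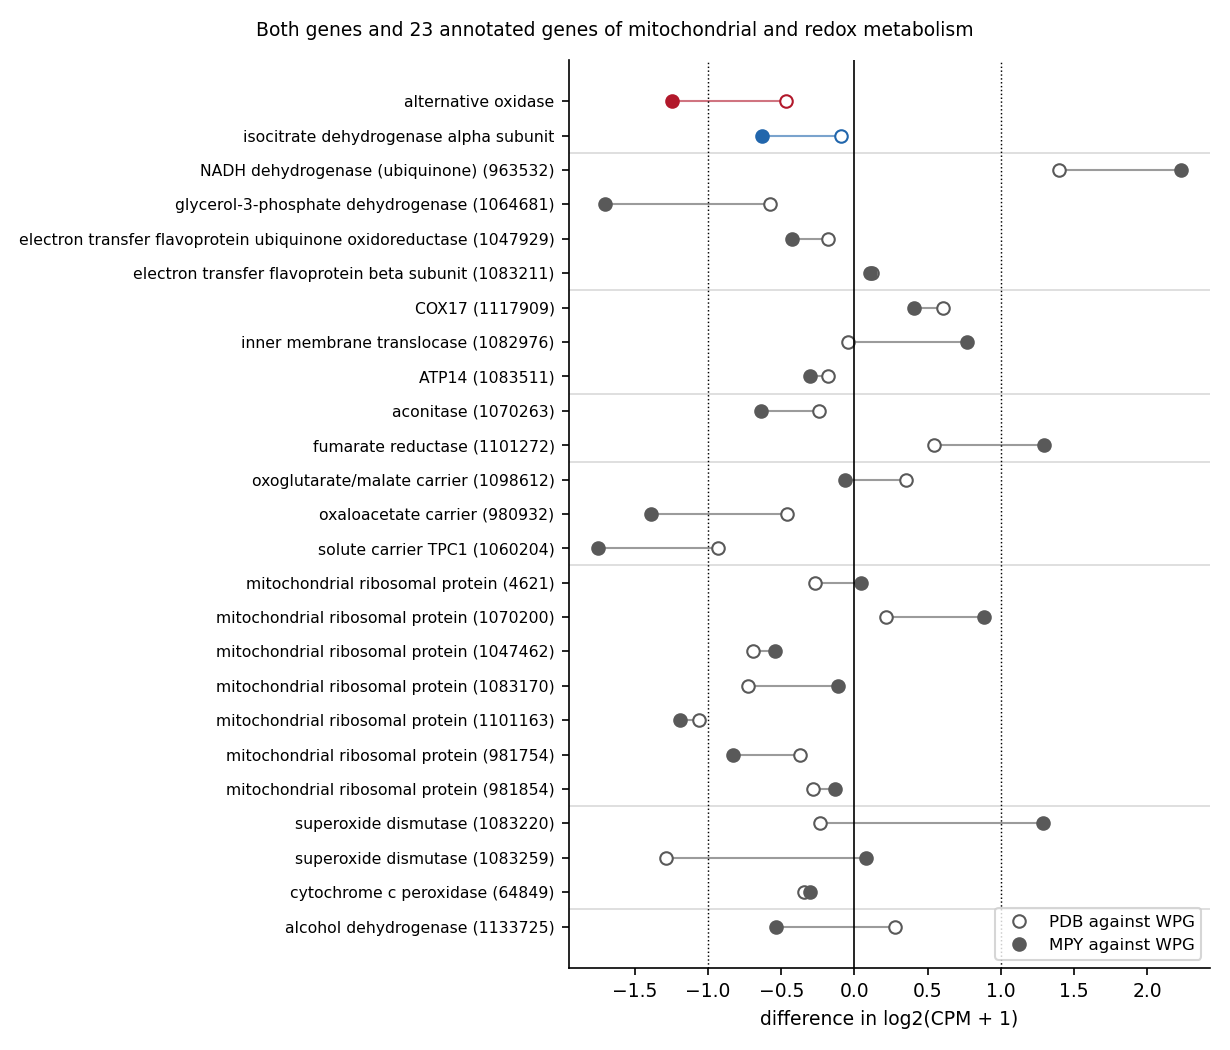
Each line of the plot is 1 gene, with protein IDs in brackets and grey rules between functional groups. Open circles give the difference in log2(CPM + 1) of PDB against WPG, filled circles that of MPY against WPG, and dotted lines the 2-fold limit. Alternative oxidase (-1.25 in MPY) lies on the side of the glycerol-3-phosphate dehydrogenase (-1.71) and opposite to the NADH dehydrogenase (2.23) and fumarate reductase (1.29).

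Fermentation offers another way to regenerate NAD, in which an alcohol dehydrogenase reduces acetaldehyde to ethanol. The list holds 1 alcohol dehydrogenase gene (1133725), the one named in the paper, which also counts it among the aroma genes. Whether its product works in fermentation was not tested. The paper reports further alcohol dehydrogenase genes, which were not analysed here, so the values below are for this gene only. Per kb of span, alternative oxidase had 0.330 times the level of alcohol dehydrogenase in WPG (interval 0.328 to 0.332) and 0.326 times that in WPGY. The ratio was lower in the complex media and similar in both, at 0.201 in MPY (interval 0.198 to 0.204) and 0.197 in PDB (interval 0.196 to 0.199). Alcohol dehydrogenase itself had 2335 CPM in MPY and 4088 in PDB, against 3379 in WPG and 3412 in WPGY. It was thus higher in PDB than in WPG and lower in MPY, while alternative oxidase was lower in both. Alcohol dehydrogenase was the 1 gene of the 23 above alternative oxidase per kb of span in WPG, WPGY and PDB. In MPY there were 3 such genes, with fumarate reductase and cytochrome c peroxidase added.

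The neighbours of both genes were examined because reads that run past the end of a model could be assigned to the next one. None of the models overlapped. Alternative oxidase ends 160 bp before an acylphosphatase gene (1047545) with 44.8 CPM in WPG, and isocitrate dehydrogenase ends 137 bp before an MDM10 gene (1082586), part of the tether between endoplasmic reticulum and mitochondria, with 19.9 CPM. The models on the other side were an LSM2 gene (22331) at 2.66 CPM and a model without annotation (1192861) at 45.1 CPM. All 4 neighbours were far below the gene they flank in each library. Between 0.477 and 0.761 times their WPG level was found in MPY, and the part of neighbouring reads in the results was not tested.

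Across the 4 libraries the profiles of the 6365 models with at least 10 CPM in each were compared by the Euclidean distance between log2(CPM + 1) values centred on their own mean. The nearest to alternative oxidase was model 1138810, at a distance of 0.035, with 71.5 CPM in MPY, 127 in PDB and 171.5 in both WPG and WPGY, followed by models 1060286, 1102668, 992453 and 1094746, the last at 0.056. The nearest to isocitrate dehydrogenase was model 1079589, at 0.011, with 10.4 CPM in MPY and 15.7 in PDB, against 16.8 in WPG and 17.0 in WPGY, followed by 1130491, 984228, 1101165 and 1134715, the last at 0.034. Only 1 of the 5 models nearest to each gene was among the annotation rows at hand, without a function there, so the functions of these models were not analysed here. With 4 points, of which WPG and WPGY are nearly the same, many models come close, and 1.48% of them lay within 0.2 of alternative oxidase and 5.23% within 0.2 of isocitrate dehydrogenase. The pair itself was 0.51 apart, below the median distance of all these models from alternative oxidase (1.09) and from isocitrate dehydrogenase (0.72). Isocitrate dehydrogenase took place 662 in the order of likeness to alternative oxidase, and alternative oxidase place 1939 in the order of likeness to isocitrate dehydrogenase. Among the genes set beside the pair, the oxaloacetate carrier was the nearest to alternative oxidase (0.13, with 43 models nearer) and aconitase the nearest to isocitrate dehydrogenase (0.13, with 118 nearer).

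**Figure D4:**
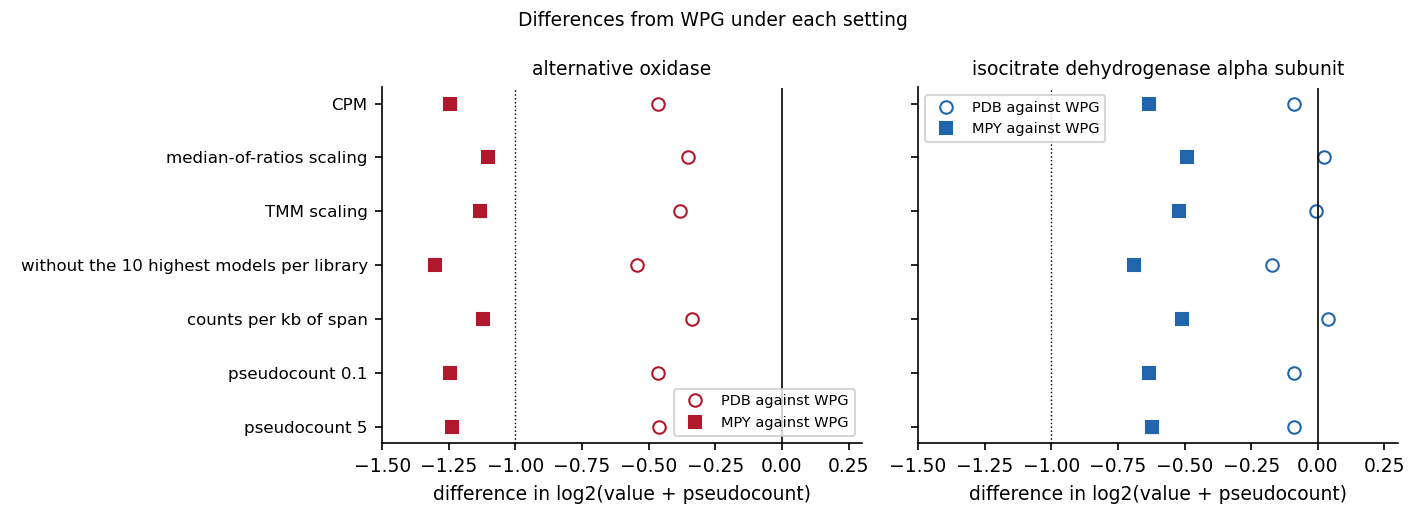
Points give the difference from WPG in log2(value + pseudocount) for PDB (open circles) and MPY (filled squares) under the CPM scale and 6 other settings, for alternative oxidase (left) and isocitrate dehydrogenase (right); the dotted line is 2-fold. Alternative oxidase in MPY stays between -1.30 and -1.10, and isocitrate dehydrogenase in PDB lies on both sides of 0, between -0.17 and 0.039.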

How the data were processed

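The mRNA of *T. borchii* SP1 mycelium was sequenced in paired reads from TruSeq libraries, 1 for each of 4 media. The authors ran FastQC and Trimmomatic on the reads, aligned them to Tubbor1, the genome of strain Tbo3840, with STAR, and counted them per gene with featureCounts. The deposited values are raw counts per gene model, without normalization. Strand and multi-mapping settings are not given in the sources used here, so reads of antisense or near-identical genes cannot be separated.

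Counts were divided by the column total (CPM). Differences are in log2(CPM + 1), among models with at least 1 CPM in either library, with a 2-fold limit. Intervals are Wilson for shares and Clopper-Pearson for ratios. Spans came from the annotation table of Tubbor1, for 12345 of 12346 models. With 1 library per medium no test was made.

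Members, gene lists and comparisons were chosen with earlier results of these data known. The genes named were the pair, 23 genes picked by annotation (all but alcohol dehydrogenase by KOG or eggNOG entry), the flanking models and the 5 models nearest in profile to each member. Alternatives were median-of-ratios and TMM scaling, totals without the 10 highest models of each library (23 in all), counts per kb of span, pseudocounts of 0.1 and 5, no filter and a minimum of 10 CPM. TMM factors came from edgeR 4.0.16 in R 4.3.3, and all else from Python 3.11.15 with scipy 1.17.1, numpy 2.4.6, pandas 2.3.3 and matplotlib 3.10.9.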

Additional observations from a re-analysis of the deposited data

How the results depend on the processing

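The log2 differences that follow are for alternative oxidase and then isocitrate dehydrogenase. For MPY against WPG, median-of-ratios scaling gave -1.10 and -0.49, TMM scaling -1.13 and -0.52, totals without the 10 highest models of each library -1.30 and -0.69, and counts per kb of span -1.12 and -0.51. Median-of-ratios scaling moved the median of all models in MPY against WPG from -0.10 to 0.033. For PDB against WPG, the same settings gave -0.35 and 0.023, -0.38 and -0.0064, -0.55 and -0.17, and -0.34 and 0.039, so the sign of isocitrate dehydrogenase depended on the scaling. For MPY against PDB, alternative oxidase was at -0.75 under median-of-ratios scaling, -0.75 under TMM scaling and -0.76 without the highest models, and for WPGY against WPG it was at 0.010 per kb of span. Pseudocounts of 0.1 and 5 moved none of these differences by more than its counting interval. The ratio of alternative oxidase to isocitrate dehydrogenase per kb of span was 2.92 in MPY and 3.44 in PDB, against 4.47 in WPG and 4.39 in WPGY. The number of models lower than in WPG by over 2-fold went from 1260 to 765 in MPY with a pseudocount of 5, and in PDB from 996 to 510 with that pseudocount and 607 with at least 10 CPM. Of the 23 genes beside the pair, 2 were lower in PDB than in WPG by over 2-fold. This number was 3 with totals without the 10 highest models of each library. It was 1 under median-of-ratios and TMM scaling and per kb of span, and 0 with a pseudocount of 5. That pseudocount also took the number higher in MPY than in PDB from 2 to 0. Coding lengths were not at hand, so the ratio per coding length was not run. No paired analysis was possible because each medium has 1 library. Counting error was at most 1.06% of a value of the pair, and the spread between cultures is unknown.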
